A study of Rattus norvegicus with 18 samples.

Results

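The genes described here encode the nuclear subunits of the last 3 enzymes of mitochondrial oxidative phosphorylation: complex III (ubiquinol-cytochrome c reductase), complex IV (cytochrome c oxidase) and the ATP synthase. They were taken as every gene whose single symbol on the array begins with Uqcr, Cox4, Cox5, Cox6, Cox7, Cox8 or Atp5. The rule found 39 genes among the 14324 genes with 1 symbol: 7 of complex III, 16 of complex IV and 16 of the ATP synthase. They were read by 46 probe sets among 27363. For the 6 genes with several probe sets, the brightest by its mean over the 18 arrays was used. Cyc1, Cox6b1, Cox7a1, Cox7b2 and Uqcr10 were not analysed here.

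The 18 arrays hold RNA of rat 9L gliosarcoma cells, grown as tumours or in culture, in 6 groups of 3. All tumours were raised in male Fischer rats that were 6 weeks old at the first inoculation. 9L cells were first placed under the skin of the flank, and pieces of later passages were tied onto the epigastric artery and vein, where the profiled tumours grew. The hypoxic tumour group holds regions that had bound EF5, a drug whose adducts form in cells short of oxygen, and the normoxic tumour group holds EF5-negative regions of the same 3 tumours. Both were cut out by laser capture microdissection, so host cells that lie in a region are in its RNA. The 4 culture groups are 9L cells kept for 6 h or 16 h in about 20% oxygen (normoxia) or 0.2% oxygen (hypoxia), in the same medium with newborn calf serum. Numbered cultures were hybridised in both oxygen conditions, and nothing in the labels says how far apart the numbered cultures were set up. If they were not separate cultures, p-values measure technical spread only. All RNA was amplified before hybridisation. Every group derives from 1 cell line, so the data describe that line and its tumours.

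Complex III passes electrons from ubiquinol to cytochrome c, complex IV passes them from cytochrome c to oxygen, and both pump protons across the inner mitochondrial membrane. The ATP synthase lets the protons flow back through its membrane part, Fo, and uses that flow to make ATP in its catalytic head, F1. In many cells low oxygen stabilises the HIF transcription factors, which raise glycolytic genes. For complex IV, HIF-1 is known to raise the isoform Cox4i2 and the mitochondrial protease Lonp1, which degrades Cox4i1 protein. The mtDNA-encoded subunits of these complexes do not fall under the rule above.

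All values below are log2 signals as deposited, in which 1 unit is a factor of 2, and a difference is always the first group minus the second. Differences were fitted with limma over all 27363 probe sets, and a gene is called changed where the Benjamini-Hochberg adjusted p over all of them is under 0.05. The share of all probe sets called by the same rule is given beside each count of members as its background. For genes of high signal a second background is given, over the 25% of probe sets with the highest mean signal, since 34 of the 39 members lie among them. That mean is over all 18 arrays, of which 12 are cultures, so a probe set can enter through its culture signals alone. In comparisons of tumours with cultures this background and the bright members therefore lean towards lower in tumours. Array medians were 6.36 to 6.5 in tumours and 6.02 to 6.19 in cultures. The normoxic region of tumour 3 was unlike the other 5 tumour samples: its correlation with the mean normoxic culture over all probe sets was 0.941, against 0.865 to 0.892 for those. The hypoxia genes Car9, Vegfa, Bnip3, Ndrg1, Ankrd37, Slc2a1 and Pdk1 checked the labels. Their median difference, hypoxia minus normoxia, was 1.60 at 6 h, 1.54 at 16 h and 1.90 in the tumours, and 6 of the 7 were called at each culture time. Of 7 measured glial and neural stem cell genes, Vim (11.89 to 12.38), Sox2 (6.49 to 8.37) and Sox10 (6.27 to 7.26) lay above the array median on all 18 arrays, Nes on 16 (5.91 to 7.81) and Fabp7 on 8 (5.68 to 7.12). Gfap (4.83 to 5.77) and S100b (4.30 to 5.50) lay below it on all 18.

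Most of the common subunits were bright in every group. Cox4i1, a regulatory subunit of complex IV found in most tissues, ranged from 8.90 to 11.61, and Uqcrc1, a core protein of complex III, from 7.78 to 9.00. The genes include isoforms known mainly from heart and skeletal muscle (Cox6a2, Cox8b), testis (Cox6b2, Cox8c) and lung (Cox4i2), and 1 pseudogene (Cox6c-ps1). Leaving these out gives 33 common subunits. Their median percentile of signal within an array was 93.6 to 96.2 in tumours and 96.3 to 97.1 in cultures. The exceptions are 2 genes of the ATP synthase: Atp5mg lay at 35.9 to 55.9 in 5 of the 6 tumour samples and at 85.1 in the other, and Atp5pf fell to 47.9 in the hypoxic region of tumour 2. On every array the other 31 lay at 65.5 or above. Cox8b lay between the 14.1 and 23.8 percentiles and Cox8c between the 20.7 and 36.8 percentiles. Probe sets differ in how strongly they hybridise, so a percentile is a place within an array and not a transcript number.

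**Figure D1:**
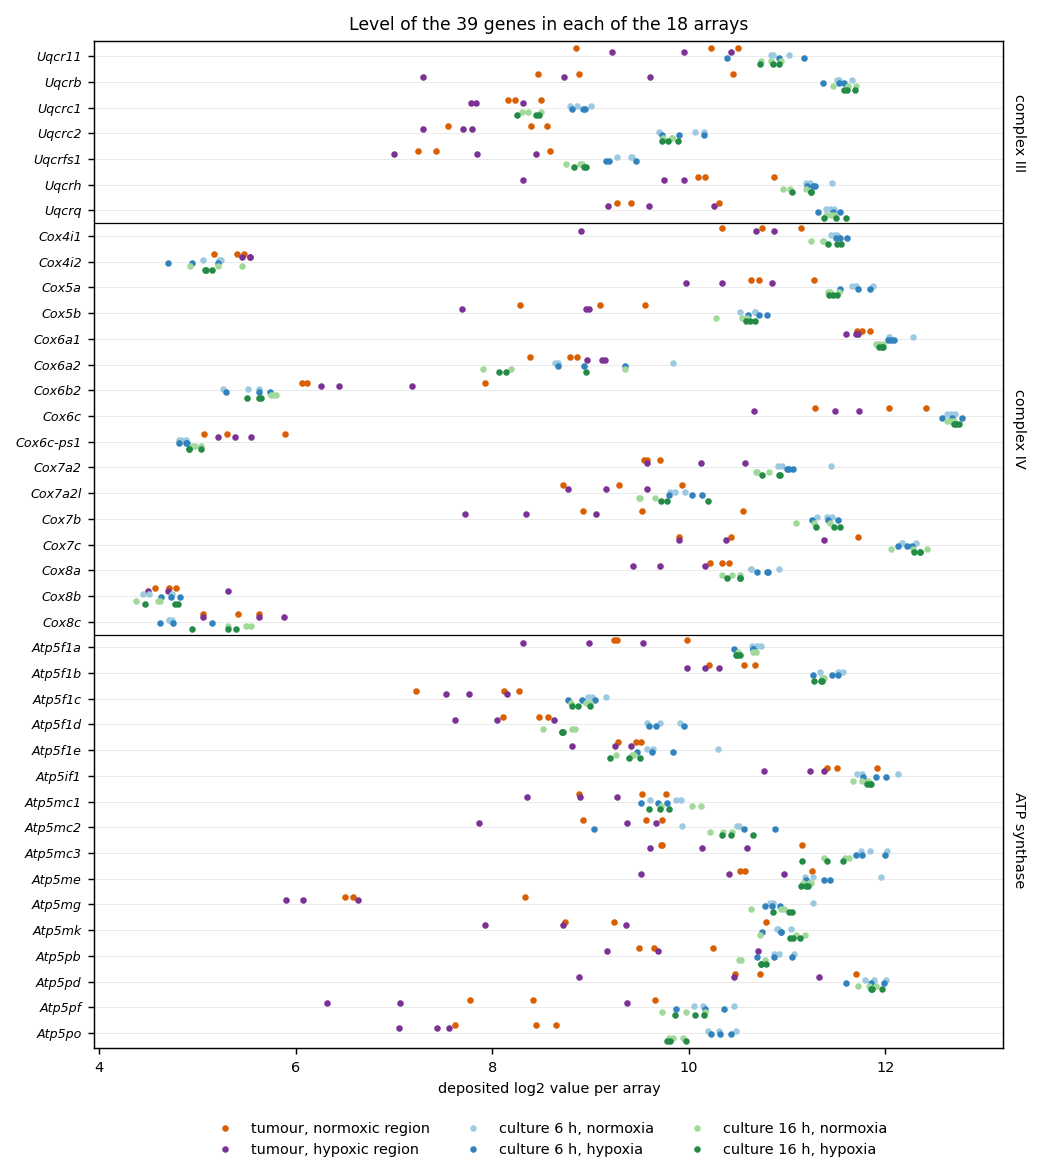
Log2 signal of each member (rows, by complex) on each of the 18 arrays, with 1 point per array and colours for the 6 groups. Most rows have tightly grouped culture points on the right and scattered tumour points on the left, as for Atp5mg, at 5.90 to 8.33 in tumours and 10.63 to 11.26 in cultures.

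The promoter of Cox4i1 and those of Atp5po and Uqcrh, 2 subunits whose tumour response was called below the culture response, are printed first because the results below turn on these genes. They are RefSeq sequences of the rat build GRCr8, from 250 bases before to 50 bases after the annotated start, so that the last 50 bases are transcribed. Capitals mark matches to ACGTG or GCGTG, the cores of hypoxia response elements, to TGCGCA, the core of the NRF-1 site, and to CCGGAAG, a core of sites for ETS factors such as GABP, each on either strand. The windows are chr19:65630133-65630432 on the plus strand for Cox4i1, chr11:44657434-44657733 on the minus strand for Atp5po and chr5:134790833-134791132 on the minus strand for Uqcrh.
Cox4i1: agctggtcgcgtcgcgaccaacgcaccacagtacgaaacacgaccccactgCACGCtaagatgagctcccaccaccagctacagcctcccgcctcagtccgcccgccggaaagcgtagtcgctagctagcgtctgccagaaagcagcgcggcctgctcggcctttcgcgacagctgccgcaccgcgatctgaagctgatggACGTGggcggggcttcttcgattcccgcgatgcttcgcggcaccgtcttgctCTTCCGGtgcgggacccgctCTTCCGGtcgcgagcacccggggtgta
Atp5po: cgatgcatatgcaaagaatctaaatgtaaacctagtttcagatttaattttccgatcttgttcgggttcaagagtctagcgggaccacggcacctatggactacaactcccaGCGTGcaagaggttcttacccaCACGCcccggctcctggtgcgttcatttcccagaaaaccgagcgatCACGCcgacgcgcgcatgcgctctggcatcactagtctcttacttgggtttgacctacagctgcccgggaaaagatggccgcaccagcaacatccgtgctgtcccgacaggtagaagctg
Uqcrh: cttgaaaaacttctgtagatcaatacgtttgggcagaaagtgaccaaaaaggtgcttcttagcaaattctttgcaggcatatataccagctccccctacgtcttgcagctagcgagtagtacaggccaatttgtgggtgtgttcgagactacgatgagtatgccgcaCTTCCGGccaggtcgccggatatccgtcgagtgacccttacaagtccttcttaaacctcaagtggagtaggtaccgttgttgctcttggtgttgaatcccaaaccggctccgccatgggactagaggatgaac
The Cox4i1 window holds 1 ACGTG, 1 CACGC (the reverse complement of GCGTG) and 2 CTTCCGG (the reverse complement of CCGGAAG). The Atp5po window holds 1 GCGTG and 2 CACGC, and the Uqcrh window holds 1 CTTCCGG and none of the other 3 motifs. A promoter was found for 32 of the 39 members. ACGTG was present on either strand in 11 of the 32 (34.4%), against 19.7% of all 27457 promoters of this length and 22.3% of the 11806 promoters of genes on the array. GCGTG was present in 14 (43.8%), against 31.1% and 40.6%. TGCGCA was present in 8 (25%), against 7.7% and 10.6%. CCGGAAG was present in 12 (37.5%), among them Atp5f1a, Cox5b and Uqcrq, against 9.2% and 13%. Matches of different motifs may share bases. They are a description of letters, and no binding was measured.

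In culture, hypoxia changed none of the 39 genes by the test. At 6 h, 0 members were called higher and 0 lower, where 0.183% of all probe sets were called higher and 0.00731% lower. No member had an unadjusted p under 0.05, against 1407 of all probe sets. At 16 h, 0 were called higher and 0 lower, where 0.603% of all probe sets were called higher and 0.102% lower. Only Cox7a2l had an unadjusted p under 0.05, against 2246 of all probe sets. The members' median difference was -0.05 at 6 h (all probe sets 0.01) and 0.03 at 16 h (all probe sets -0.03).

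The cultures were precise enough to bound the changes of most common subunits. The 95% interval of the difference lay wholly within 0.5 log2 units of 0 for 31 of the 33 at 6 h and 30 of the 33 at 16 h, and the median distance from an estimate to its bound was 0.24 at both times. The widest among them was that of Atp5mc2, which encodes the c subunit that forms the rotating ring of Fo. Its interval ran from -0.89 to 0.58 at 6 h, where the hypoxic arrays read 9.03, 10.56 and 10.88, and from -0.59 to 0.88 at 16 h. The low array is that of culture 6.

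**Figure D2:**
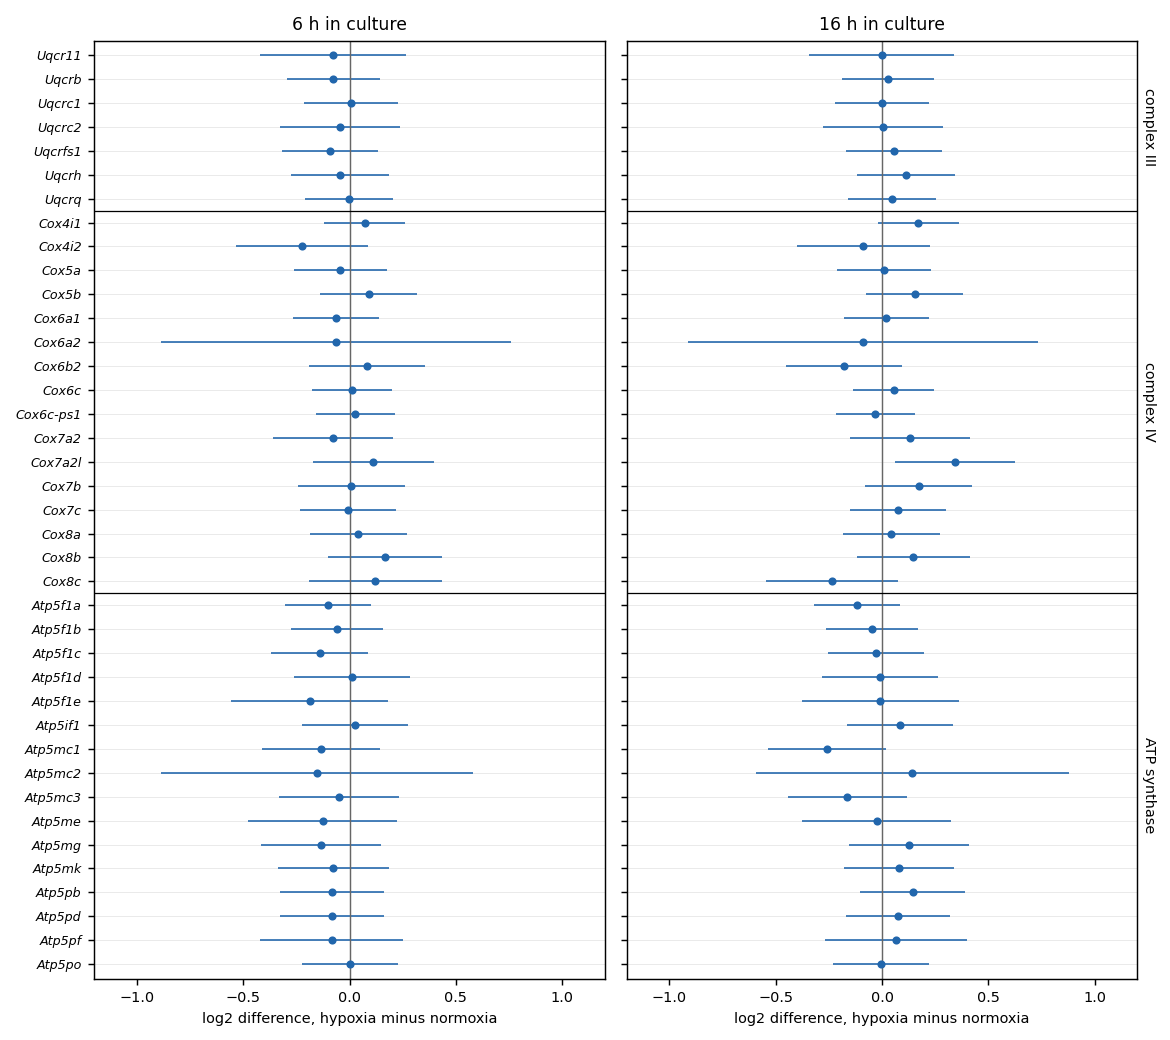
Difference in log2 signal, hypoxia minus normoxia, of each member (rows) at 6 h and at 16 h in culture, with bars for the 95% interval of the limma fit. Nearly all intervals of the 33 common subunits lie within 0.5 of 0, and that of Atp5mc2 is the widest of these. The muscle isoform Cox6a2 has the other wide interval.

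Of complex III, Uqcrc1 read 8.86, 8.79 and 9.00 in normoxia and 8.94, 8.92 and 8.81 in hypoxia at 6 h. The groups overlap and the difference was 0.01 ± 0.10 (SE; limma adjusted p = 0.999). At 16 h it read 8.36, 8.30 and 8.50 in normoxia and 8.44, 8.25 and 8.47 in hypoxia, a difference of 0.00 ± 0.10 (limma adjusted p = 0.999). Uqcrh, the hinge protein that helps cytochrome c1 meet cytochrome c, differed by -0.04 ± 0.11 at 6 h and 0.11 ± 0.11 at 16 h. Uqcrfs1, the Rieske iron-sulfur protein, differed by -0.09 ± 0.11 and 0.05 ± 0.11.

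Of complex IV, Cox7a2l had the smallest p of all members at 16 h. It encodes SCAF1, a protein known for joining complexes III and IV into supercomplexes. It read 9.49, 9.66 and 9.50 in normoxia and 9.78, 10.19 and 9.72 in hypoxia, with every hypoxic array above every normoxic one. The difference was 0.34 ± 0.13 (limma adjusted p = 0.452), and at 6 h it was 0.11 ± 0.13. Cox6c, a small nuclear subunit of complex IV, differed by 0.06 ± 0.09 at 16 h, again without overlap of the groups, and Cox6b2 by -0.18 ± 0.13 (limma adjusted p = 0.823). In all, 3 members had every 16 h hypoxic array above every normoxic one (Cox4i1, Cox6c and Cox7a2l), where 6.6% of all probe sets did, and 2 lay below (Atp5f1b and Cox6b2), where 8.13% did. At 6 h no member separated in either direction, where 5.6% of all probe sets lay above and 3.98% below. These counts are at or near the background. Cox7b differed by 0.17 ± 0.12 at 16 h and 0.01 ± 0.12 at 6 h. At 6 h the smallest p in each direction belonged to Cox4i2 (-0.22 ± 0.14) and to Cox8b (0.17 ± 0.12, limma adjusted p = 0.984 for both), and the next were Atp5f1c (-0.14 ± 0.11), Atp5f1a (-0.10 ± 0.09), Cox7a2l and Cox5b (0.09 ± 0.11).

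Of the ATP synthase, the catalytic ring of F1 stayed within these limits. Atp5f1a, the alpha subunit, differed by -0.10 ± 0.09 at 6 h and -0.12 ± 0.09 at 16 h. Atp5f1b, the beta subunit that holds the catalytic sites, differed by -0.06 ± 0.10 and -0.05 ± 0.10. Atp5if1, the inhibitor that binds F1 when the proton gradient collapses, read 11.76, 11.71 and 12.13 in normoxia and 12.01, 11.77 and 11.90 in hypoxia at 6 h, a difference of 0.03 ± 0.12. At 16 h its difference was 0.08 ± 0.12. The c-ring gene Atp5mc1 differed by -0.14 ± 0.13 at 6 h and -0.26 ± 0.13 at 16 h (limma adjusted p = 0.665). The other c-ring genes differed at 16 h by 0.14 ± 0.34 (Atp5mc2) and -0.16 ± 0.13 (Atp5mc3).

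The response to hypoxia was also compared between the 2 culture times. None of the members was called, where 0% of all probe sets were called higher at 16 h and 0% lower. No member, and 1194 of all probe sets, had an unadjusted p under 0.05 in limma. The median of the members' differences was 0.08 (all probe sets -0.03). The smallest p values belonged to Cox8c (-0.36 ± 0.20), Cox6b2 (-0.26 ± 0.18), Atp5mg (0.26 ± 0.19) and Atp5pb (0.23 ± 0.16), with a limma adjusted p of 0.982 for each.

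The exchange of Cox4i1 for Cox4i2 that low oxygen is known to bring about in some cells was looked for directly. In culture, Cox4i1 read 11.45, 11.49 and 11.51 in normoxia and 11.61, 11.54 and 11.50 in hypoxia at 6 h, and 11.24, 11.37 and 11.36 against 11.42, 11.55 and 11.51 at 16 h. Its differences were 0.07 ± 0.09 (limma adjusted p = 0.987) and 0.17 ± 0.09 (limma adjusted p = 0.691). Cox4i2 read 5.22, 5.06 and 5.24 in normoxia and 4.94, 4.70 and 5.21 in hypoxia at 6 h. At 16 h it read 5.21, 5.45 and 4.92 in normoxia and 5.15, 5.08 and 5.09 in hypoxia. The normoxic and hypoxic arrays of Cox4i2 overlap at both times, and its differences were -0.22 ± 0.14 and -0.09 ± 0.14. Cox4i2 lay between the 23.6 and 35 percentiles of its array on all 18 arrays, and Cox4i1 between 91.8 and 98.4. A probe set this dim can hide a change of a rare transcript.

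The difference between the 2 responses, Cox4i2 minus Cox4i1, was -0.29 ± 0.17 (SE) at 6 h and -0.26 ± 0.17 at 16 h. Two-sided exact permutation tests within each time gave p = 0.2 and p = 0.3, where the smallest possible is 0.1. Over both times it was -0.28 ± 0.12, with an exact permutation p of 0.045 (smallest possible 0.005) and 0.18 after Benjamini-Hochberg adjustment over the 4 such tests.

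In the tumours, Cox4i1 read 10.34 (tumour 1), 10.74 (tumour 2) and 11.14 (tumour 3) where EF5 was negative and 10.68, 10.87 and 8.90 in the hypoxic regions. It was higher in the hypoxic region of tumours 1 and 2 and lower in that of tumour 3, and the fitted difference was -0.59 ± 0.50 (limma adjusted p = 0.707). Without tumour 3 it was 0.23. Cox4i2 read 5.40, 5.47 and 5.17 in normoxic and 5.53, 5.45 and 5.53 in hypoxic regions, a difference of 0.15 ± 0.19. The difference of the responses, Cox4i2 minus Cox4i1, was -0.21, -0.15 and 2.59 in tumours 1, 2 and 3. Its mean of 0.74 ± 0.92 (exact permutation p = 1, smallest possible 0.25, two-sided) rests on tumour 3 and becomes -0.18 without it.

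**Figure D3:**
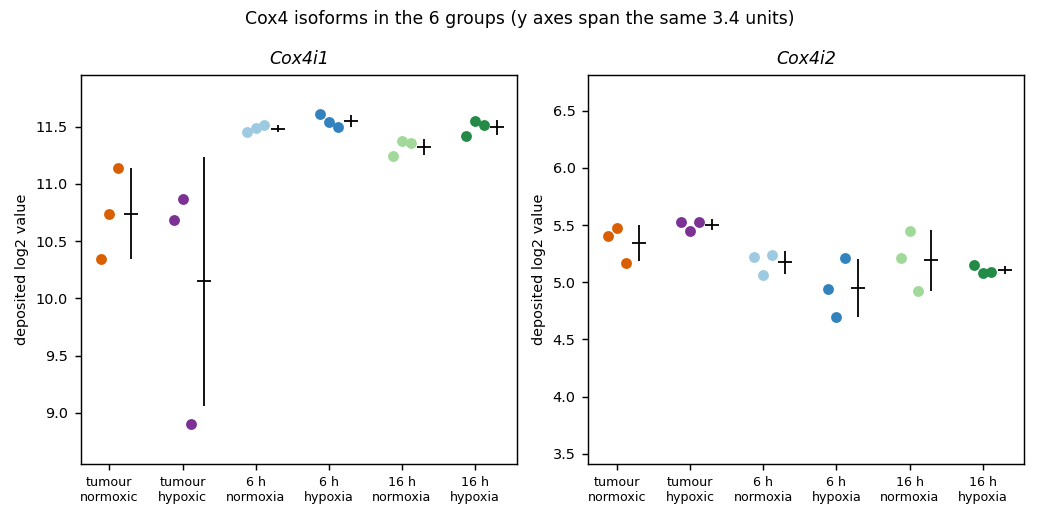
Log2 signal of Cox4i1 and of Cox4i2 in the 6 groups, with 1 point per array and the mean ± SD of 3 arrays. Cox4i1 is at 11.24 to 11.61 in cultures and at 8.90 in 1 hypoxic tumour region, and Cox4i2 stays between 4.70 and 5.53.

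In the tumours, most subunits had lower estimates in the hypoxic regions, but none passed the test. The members called were 0 higher and 0 lower, where 0% of all probe sets were called higher and 0% lower. In limma 10 of the 39 members had an unadjusted p under 0.05, all with lower values in the hypoxic regions. Of all 27363 probe sets 2496 had such a p in either direction, and of the 6841 brightest 1303 did. The smallest limma adjusted p of a member was 0.304. The estimates were lower in hypoxic regions for 30 of the 39, against 9637 of all 27363 probe sets and 4196 of the 6841 brightest. The members' median was -0.33, against 0.10 for all probe sets and -0.13 for the brightest 25%. By complex the medians were -0.49 for the ATP synthase (15 of 16 lower), -0.32 for complex III and -0.11 for complex IV. The tissue isoforms and the pseudogene all belong to complex IV, so its median cannot be set directly against the others. Over the 33 common subunits the median was -0.48. These intervals were wide, with a median distance from estimate to bound of 0.64 over the 33 common subunits, and none of them lay wholly within 0.5 of 0. In RNA of whole regions, fewer cells of a type and less RNA per cell cannot be told apart.

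Counted by tumour, 14 of the 39 members (35.9%) were lower in the hypoxic region of all 3 tumours, where 11% of all probe sets were, and 14 of the 34 bright members (41.2%), where 23.6% of the brightest 25% were. The 14 are Atp5f1b, Atp5f1e, Atp5if1, Atp5mc1, Atp5me, Atp5mk, Atp5pd, Atp5pf and Atp5po of the ATP synthase, Cox5a, Cox6c, Cox7b and Cox8a of complex IV, and Uqcrh of complex III. Only Cox6a2 and Cox7a2 (5.13%) were higher in all 3, where 22.9% of all probe sets were. The share of members lower in the hypoxic region was 59% in tumour 1, 61.5% in tumour 2 and 76.9% in tumour 3. For the brightest 25% the shares were 54.2%, 50.8% and 65.9%. The members' medians were -0.18, -0.05 and -0.57, so the size of the shift rests largely on tumour 3. Without tumour 3 the median was -0.18, and 15 members (38.5%) were lower in both remaining tumours, against 22% of all probe sets and 30.7% of the brightest 25%.

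**Figure D4:**
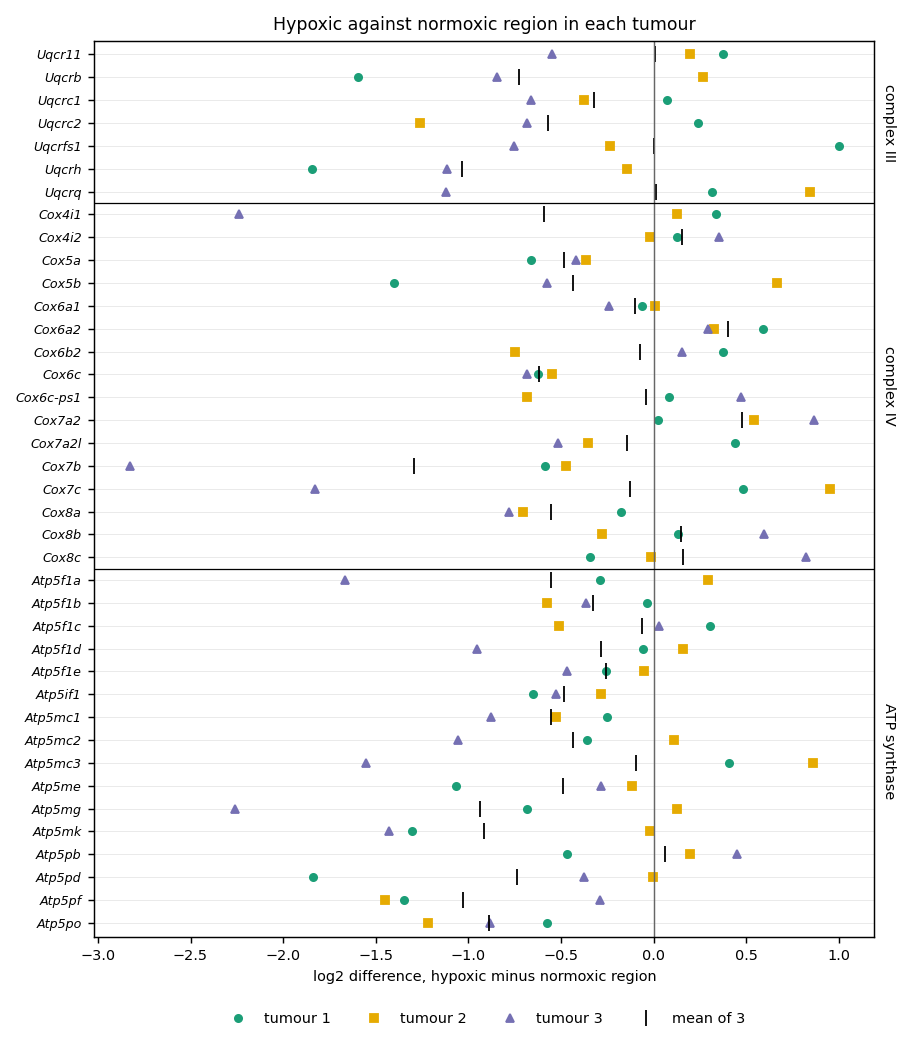
Difference in log2 signal between the hypoxic and the normoxic region of each tumour (1 point per tumour, with a tick for their mean) for each member (rows, by complex). For 14 members all 3 points lie below 0, and the lowest points belong to tumour 3, at -2.83 for Cox7b and -2.26 for Atp5mg.

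Within the ATP synthase, Atp5po and Atp5pf had the smallest p values. Atp5po, also called OSCP, joins F1 to the peripheral stalk. It read 7.62, 8.65 and 8.44 in normoxic regions and 7.05, 7.44 and 7.56 in hypoxic regions, with every hypoxic value below every normoxic one. The difference was -0.89 ± 0.21 (limma adjusted p = 0.304), or 1.85-fold lower. Atp5pf, the F6 subunit of the same stalk, read 8.41, 7.77 and 9.66 against 7.06, 6.32 and 9.37, lower in each tumour although the groups overlap. Its difference was -1.03 ± 0.28 (limma adjusted p = 0.37). Atp5mk, a small membrane subunit also called DAPIT, read 9.24, 8.74 and 10.79 against 7.93, 8.72 and 9.36, with almost no difference in tumour 2 (-0.92 ± 0.31, limma adjusted p = 0.468).

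The inhibitor Atp5if1 read 11.41, 11.51 and 11.91 in normoxic and 10.76, 11.23 and 11.38 in hypoxic regions, without overlap, a difference of -0.49 ± 0.19 (limma adjusted p = 0.523). The c-ring gene Atp5mc1 differed by -0.55 ± 0.21, against -0.44 ± 0.26 for Atp5mc2 and -0.10 ± 0.46 for Atp5mc3, all of which encode the same mature c subunit. The catalytic-ring genes read 9.27, 9.24 and 9.98 against 8.98, 9.53 and 8.31 (Atp5f1a, -0.55 ± 0.37) and 10.20, 10.56 and 10.67 against 10.16, 9.98 and 10.31 (Atp5f1b, -0.33 ± 0.20). Atp5f1a was higher in the hypoxic region of tumour 2. Atp5pb, the b subunit of the peripheral stalk, was the 1 ATP synthase gene with an estimate above 0 (0.06 ± 0.24).

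Within complex III, Uqcrh read 10.16, 10.09 and 10.87 in normoxic and 8.31, 9.95 and 9.75 in hypoxic regions, without overlap of the groups. The difference was -1.03 ± 0.33 (limma adjusted p = 0.442), and in tumour 2 it was only -0.14. Uqcrc1 read 8.23, 8.16 and 8.49 against 8.31, 7.78 and 7.83, which overlap, a difference of -0.32 ± 0.22 (limma adjusted p = 0.668). Uqcrfs1 (0.00 ± 0.35), Uqcrq (0.01 ± 0.38) and Uqcr11 (0.01 ± 0.24) had estimates near 0 with wide errors.

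Within complex IV, Cox6c was the most even across the tumours. It read 11.28, 12.04 and 12.41 in normoxic and 10.66, 11.49 and 11.73 in hypoxic regions, lower by 0.62, 0.55 and 0.68 in tumours 1, 2 and 3, for a difference of -0.62 ± 0.18 (limma adjusted p = 0.403). Cox7b read 8.92, 9.52 and 10.55 against 8.34, 9.05 and 7.72, and its difference of -1.29 ± 0.47 (limma adjusted p = 0.497) comes mostly from tumour 3. Cox8a, the common isoform of subunit VIII, read 10.34, 10.41 and 10.21 against 10.16, 9.71 and 9.43, without overlap (-0.55 ± 0.21, limma adjusted p = 0.512). Cox5a read 10.63, 10.71 and 11.27 against 9.97, 10.34 and 10.85 (-0.48 ± 0.19), and Cox5b differed by -0.44 ± 0.39.

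Isoforms of 1 complex IV subunit had tumour estimates of either sign. Cox6a2, the muscle isoform of subunit VIa, read 8.38, 8.79 and 8.86 in normoxic and 8.96, 9.12 and 9.15 in hypoxic regions, above without overlap (0.40 ± 0.19, limma adjusted p = 0.591). Its common counterpart Cox6a1 differed by -0.10 ± 0.18. Cox7a2 read 9.54, 9.57 and 9.71 against 9.57, 10.12 and 10.57 (0.48 ± 0.23, limma adjusted p = 0.602), and the related Cox7a2l differed by -0.14 ± 0.24. The other probe set of Cox7a2 gave 0.18, and that of Cox5a gave -0.15. The tissue isoforms Cox8b (0.15 ± 0.23), Cox8c (0.16 ± 0.27) and Cox6b2 (-0.07 ± 0.26) and the pseudogene Cox6c-ps1 (-0.04 ± 0.26) had estimates within 0.16 of 0.

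Means of macrophage genes and of T and NK cell genes were lower in the hypoxic region of each tumour. Means of the other host cell genes were higher or mixed. The mean signal of 16 macrophage genes was 7.91, 8.11 and 8.48 in the normoxic regions and 7.49, 7.84 and 7.31 in the hypoxic regions, against 5.40 to 5.59 in cultures. That of 12 T and NK cell genes was 6.79, 6.71 and 7.79 against 6.20, 6.48 and 6.34, and 5.17 to 5.51 in cultures. Of the macrophage genes 13 of 16 had lower values in the hypoxic regions (median -0.49), as did 11 of the 12 T and NK cell genes (median -0.58), and none was called. The mean of pericyte and smooth muscle genes was 6.42, 6.45 and 6.45 in normoxic and 6.63, 6.56 and 6.53 in hypoxic regions. That of endothelial genes was 5.92, 5.82 and 5.98 against 6.02, 5.85 and 5.90. Means of skeletal muscle and adipocyte genes were higher in the hypoxic regions of tumours 1 and 3 and slightly lower in that of tumour 2. The part of host cells in the tumour values of the subunits was not tested. Fitted together with the cultures, in which the spread over all 18 arrays is shared, 10 members (25.6%) were called lower in the hypoxic regions, where 5.57% of all probe sets and 14.6% of the brightest 25% were. They are Atp5if1, Atp5mc1, Atp5mk, Atp5pf, Atp5po, Cox5a, Cox6c, Cox7b, Cox8a and Uqcrh. The median residual SD was 0.236 in tumour pairs and 0.157 in cultures, so a shared spread can understate that of the tumours. The fit of the tumours alone called none of them. In the fit of the tumours alone, leaving out tumour 1 called Cox7b lower, where 1.49% of all probe sets and 3.61% of the brightest 25% were.

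The tumour response was then set against the mean of the 2 culture responses, using the arrays already described. In limma 4 of the 39 members (10.3%) had a tumour difference below the culture difference: Cox6c, Atp5po, Uqcrh and Atp5pf. The background was 2.51% of all probe sets lower and 6.46% of the brightest 25%, to be read against 4 of 34 bright members (11.8%), and 0 members were higher, where 0.925% of all probe sets were. The median over the members was -0.36, against 0.10 over all probe sets and -0.12 over the brightest 25%. The gaps were -0.65 ± 0.11 for Cox6c (limma adjusted p = 0.00618), -0.89 ± 0.15 for Atp5po (0.00622), -1.07 ± 0.26 for Uqcrh (0.0374) and -1.02 ± 0.25 for Atp5pf (0.0396). In hypoxic against normoxic cultures these 4 genes overlap, except Cox6c at 16 h, which lay slightly higher in hypoxia. The call of Cox6c was lost under cyclic loess (-0.43, limma adjusted p = 0.0535), which left 1 member called lower (2.56%), where 2.54% of all probe sets were.

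These calls depend on how the spread is treated. Tumour pairs varied more than cultures, with a median residual SD of 0.236 against 0.157, while the fit shares 1 spread. With arrays weighted by their own spread, an alternative chosen after seeing the data, 0 members were called, with limma adjusted p of 0.0714 for Atp5po, 0.1 for Cox6c, 0.108 for Uqcrh and 0.228 for Atp5pf. That weighting called 0.0292% of all probe sets higher and 0.409% lower. With the culture number as a block, Atp5po and Cox6c stayed called. The count was 2 (5.13%), where 0.987% of all probe sets and 2.46% of the brightest 25% were lower. On the deposited scale those 2 also stayed called in all 15 fits that left out 1 tumour or 1 culture array. Atp5pf was kept in 5 of these 15, and lost without tumour 1, without tumour 2 or without any of 8 single culture arrays. Uqcrh was kept in 3, and lost without tumour 1, without tumour 3 or without any of 10 culture arrays. Leaving out tumour 1 gave 5 lower members (12.8%), where 3.72% of all probe sets and 9.55% of the brightest 25% were lower. Leaving out tumour 2 gave 12 (30.8%, all 5.42%, brightest 14.9%). Leaving out tumour 3 gave 3 lower (7.69%, all 2.48%, brightest 5.92%) and a median of -0.19. It also gave 2 higher, Atp5mc3 and Cox7c (5.13%, all 1.7%, brightest 4.15%), which is near the background of the brightest. Just past the threshold were Cox8a (-0.60, limma adjusted p = 0.0501), Cox7b (-1.38, 0.0574) and Atp5mk (-0.92, 0.0596).

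As deposited, most of these genes had lower signals in normoxic tumour regions than in normoxic cultures. After quantile normalization or cyclic loess 14 were called lower, all of them among the 34 bright members. Of all probe sets 16.3% and 18.6% were then called lower, and of the brightest 25% it was 31.6% and 31.3%. Comparing the 3 normoxic tumour regions with the 6 normoxic cultures as deposited, 27 of the 39 members (69.2%) were called lower. The background was 20.7% of all probe sets and 57.4% of the brightest 25%. Of the 34 bright members 27 (79.4%) were called lower. Both bright sets were chosen by a mean in which culture arrays outnumber tumour arrays, which favours genes lower in tumours. Of all members 2 were called higher, Cox6b2 and Cox6c-ps1, where 43.6% of all probe sets were, and both calls were lost under each of 3 rescalings. All 33 common subunits had an estimate below 0 as deposited and after median centring, against 27 after quantile normalization and 25 after cyclic loess. The medians were -0.89 for the members, 0.24 for all probe sets and -0.62 for the brightest 25%. By complex they were -1.35 for complex III, -0.96 for the ATP synthase and -0.33 for complex IV. The complex IV median includes the tissue isoforms and the pseudogene, with estimates from -0.09 (Cox6a2) to 1.08 (Cox6b2). It cannot be set directly against the medians of the other complexes. Tumour tissue holds host cells and its RNA came through microdissection, so tissue, cell make-up and handling cannot be told apart in this comparison.

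The widest gap was that of Atp5mg, the g subunit of the ATP synthase membrane part. It read 6.58, 6.5 and 8.33 in normoxic tumour regions and 10.83 to 11.26 in the 6 h and 10.63 to 10.97 in the 16 h normoxic cultures. The difference was -3.78 ± 0.30 (limma adjusted p = 1.49e-07), a 13.7-fold lower signal. Its percentile within the array was 54, 51.7 and 85.1 in tumours 1, 2 and 3 and 96.2 to 97.6 in the cultures, so tumour 3 stood nearest to culture. Atp5po differed by -1.85 ± 0.17 (limma adjusted p = 8.07e-07), Atp5mc3 by -1.50 ± 0.26, Atp5f1a by -1.15 ± 0.20, Atp5f1c, the rotor shaft subunit, by -1.11 ± 0.19, and Atp5f1b by -0.94 ± 0.11. The inhibitor Atp5if1 was not called (-0.20 ± 0.14, limma adjusted p = 0.225).

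In complex III, Uqcrb differed by -2.32 ± 0.40 (limma adjusted p = 0.00019), Uqcrq by -1.78 ± 0.21 and Uqcrc2 by -1.72 ± 0.19 (limma adjusted p = 2.8e-06). Uqcrb has near-identical copies on the array, so its signal can be split among them. Uqcrc1 differed by -0.34 ± 0.12 (limma adjusted p = 0.0227), a call lost without tumour 1 or tumour 2. In complex IV, Cox7b differed by -1.66 ± 0.28, Cox5b by -1.57 ± 0.26, Cox7c by -1.55 ± 0.32 and Cox7a2 by -1.31 ± 0.17 (limma adjusted p = 1.28e-05). Cox4i1 did not pass (-0.66 ± 0.30, limma adjusted p = 0.0633), nor did Cox4i2 (0.17 ± 0.13, 0.254). Cox6b2 was called higher as deposited (1.08 ± 0.31, limma adjusted p = 0.00737) but not after quantile normalization (0.92, limma adjusted p = 0.0974), median centring (0.77, 0.0558) or cyclic loess (0.61, 0.139). It read 7.93 in tumour 2 and 6.06 and 6.11 in tumours 1 and 3, and was not called without tumour 2. For Atp5pd the probe set used gave -0.89 and another gave -3.34.

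Scaling bears on this comparison, since the distributions of tumour and culture arrays differ in width. Over all probe sets the median difference was 0.24 as deposited, 0.06 after quantile normalization, -0.07 after centring on the median and 0.01 after cyclic loess. Of all probe sets called, 67.8% were higher in tumours as deposited, against 57.5%, 34% and 49.6%. After median centring 33 members were called lower (84.6%, all 31%, brightest 70.6%). Under quantile normalization 14 members were lower (35.9%, all 16.3%, brightest 31.6%) and under cyclic loess 14 (35.9%, all 18.6%, brightest 31.3%). The members' medians were then -0.32 (brightest -0.14) and -0.26 (brightest -0.08). The members called lower as deposited and also under both quantile normalization and cyclic loess numbered 13 (33.3%, all 13.2%, brightest 30%): Atp5f1b, Atp5f1c, Atp5mc3, Atp5mg, Atp5po, Cox5b, Cox7a2, Cox7b, Cox7c, Uqcrb, Uqcrc2, Uqcrfs1 and Uqcrq. Atp5mg stood at -3.60 after quantile normalization and -3.10 after cyclic loess. Under both, 7 estimates turned from below to above 0: those of Atp5f1e, Atp5if1, Atp5mc1, Cox6a2, Cox7a2l, Cox8a and Uqcrc1. Atp5f1e, the epsilon subunit of F1, was then called higher (0.52, limma adjusted p = 0.0331, and 0.49, 0.0443). Atp5if1 was called higher under cyclic loess (0.43, limma adjusted p = 0.00592), as was Cox6a1 (0.36, 0.0094). The members called higher numbered 1 (2.56%) under quantile normalization, where 22% of all probe sets and 24.2% of the brightest 25% were. Under cyclic loess they numbered 3 (7.69%), where 18.3% and 27.8% were. Both shares of members lay below the background. The estimates of Cox4i2, Cox8b and Cox8c turned from above to below 0 under both. A rank within the array does not depend on scaling. In 12 members (30.8%) the 3 tumour percentiles lay below all 6 culture ones. The same held for 14.5% of all probe sets and 29% of the brightest 25%. These 12, the 13 above and the 14 under quantile normalization and under cyclic loess all lay among the 34 bright members. Their shares of all 39 members are therefore smaller than their shares of the bright members.

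**Figure D5:**
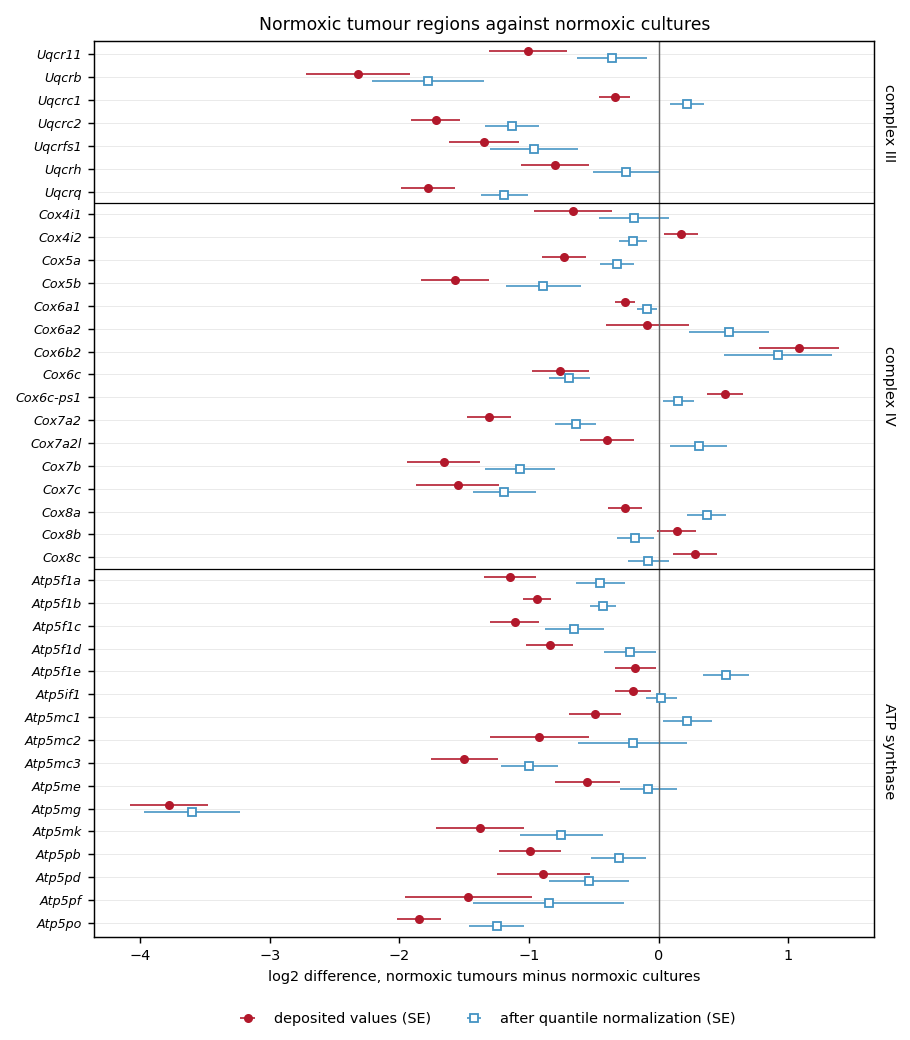
Difference in log2 signal, normoxic tumour regions minus normoxic cultures, of each member (rows, by complex), with filled points for deposited values, open squares for values after quantile normalization and bars for SE. Most squares lie to the right of their points, and Atp5mg is the farthest to the left under both, at -3.78 and -3.60.

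The 2 normoxic culture times also differed for a few members. No culture number occurs at both times, so time, set of cultures and handling cannot be told apart in this comparison. At 16 h against 6 h, 4 members were lower (Atp5f1d, Uqcrfs1, Uqcrc1 and Atp5po) and 1 was higher (Cox8c), where 2.45% of all probe sets were called lower and 2.41% higher, and 4.63% of the brightest 25% lower, against 4 of 34 bright members (11.8%). Atp5f1d, the delta subunit of the F1 central stalk, read 9.57, 9.71 and 9.91 at 6 h and 8.84, 8.52 and 8.81 at 16 h, without overlap, a difference of -1.01 ± 0.13 (limma adjusted p = 0.00154). Its hypoxic cultures also separated by time, with 9.95, 9.59 and 9.67 at 6 h and 8.71, 8.72 and 8.71 at 16 h. Uqcrfs1 differed by -0.51 ± 0.11 (limma adjusted p = 0.0161), Uqcrc1 by -0.50 ± 0.10 (0.0173) and Atp5po by -0.47 ± 0.10 (0.024). Cox8c read 4.71, 4.71 and 4.74 at 6 h and 5.54, 5.31 and 5.49 at 16 h (0.73 ± 0.14, limma adjusted p = 0.0143), all below the array median. In 13 members (33.3%) every 16 h array lay below every 6 h array, where 13.6% of all probe sets did, and in 3 it lay above, where 16.3% did. The median was -0.14, against 0.03 for all probe sets and -0.09 for the brightest 25%. Atp5f1d was called under every alternative run. Quantile normalization and cyclic loess left Atp5f1d and Cox8c, and the count fell to 1 without the 16 h array 22, 2 without 16 h array 28 or 6 h array 26, and 3 without 6 h array 6.

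Genes that assemble, supply or regulate the complexes were read from 6 lists. In culture, of the listed genes 2 were called at each time, both higher. Higd1a, a mitochondrial protein that binds complex IV and is a known HIF-1 target, rose by 0.85 ± 0.14 at 6 h (limma adjusted p = 0.0268) and 1.16 ± 0.14 at 16 h (0.00118). Mxi1, a MYC antagonist that can lower mitochondrial genes, rose by 1.02 ± 0.18 (limma adjusted p = 0.0322) and 1.30 ± 0.18 (0.00253). Lonp1 differed by 0.61 ± 0.13 (limma adjusted p = 0.138) and 0.51 ± 0.13 (0.135). None of the 14 measured complex IV assembly genes, 5 complex III assembly genes, 3 ATP synthase assembly genes or 4 complex II genes was called in either culture comparison.

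In the tumours none of the listed genes was called. Higd1a read 7.71, 8.69 and 9.36 in normoxic and 9.26, 9.68 and 10.41 in hypoxic regions, higher in each tumour (1.19 ± 0.20, limma adjusted p = 0.215), and Lonp1 differed by 0.70 ± 0.28 (0.539). Ppargc1a, a coactivator of mitochondrial biogenesis, differed by 0.20. The complex II gene Sdhd, a membrane anchor of succinate dehydrogenase, differed by -1.25 ± 0.21 (limma adjusted p = 0.203). Against culture its response was lower by -1.38 ± 0.17 (limma adjusted p = 0.000579), and those of Surf1, a complex IV assembly factor (-0.80 ± 0.18), Higd2a (-0.88 ± 0.23) and Mxi1 (-1.11 ± 0.29) were also called. With arrays weighted by spread, Sdhd had a limma adjusted p of 0.0148, Surf1 of 0.269, Higd2a of 0.146 and Mxi1 of 0.266.

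Between normoxic tumours and cultures, many listed partners were called lower as deposited, where 20.7% of all probe sets and 57.4% of the brightest 25% were. Lower in tumours as deposited were 4 of 4 complex II genes (Sdhb -1.82, Sdha -1.39), 11 of 14 complex IV assembly genes (Cmc1 -3.06, Lrpprc -1.80, Cox19 -1.59, Coa3 -1.50), 5 of 5 complex III assembly genes (Bcs1l -1.59) and 3 of 3 ATP synthase assembly genes (Tmem70 -0.99). Of 9 measured genes of the list of cytochrome c, supercomplex and hypoxia-linked partners, 5 were lower and 2 higher. Lower were, among others, Ndufa4 (-2.78), Iscu (-1.66), Cycs, cytochrome c itself (-1.54), and Higd1a (-1.39). Chchd10 (1.00) was among the higher. Of 11 biogenesis regulators, 5 were lower, including the mtDNA factors Tfb2m (-3.17), Tfam (-2.13) and Tfb1m (-2.09) and the ETS factor subunit Gabpa (-2.29), and 3 were higher, including the mitochondrial RNA polymerase Polrmt (0.44). Quantile normalization and cyclic loess were run on these lists and on the marker genes after seeing the data. For the lists both gave the same counts of lower genes. They were 2 of 4 complex II genes (Sdha and Sdhb), 8 of 14 complex IV assembly genes and 3 of 5 complex III assembly genes. Also lower were 3 of 3 ATP synthase assembly genes, 4 of 9 genes of the cytochrome c, supercomplex and hypoxia-linked list and 4 of 11 regulators. For these rescalings the background lower was 16.3% and 18.6% of all probe sets and 31.6% and 31.3% of the brightest 25%. Of the listed partners, Cox15, Chchd10, Mxi1 and Polrmt were called higher under both. The macrophage genes were higher in the tumours for 15 of 16 (median 2.51) and the T and NK cell genes for 12 of 12 (median 1.53). As deposited, where 43.6% of all probe sets were higher, those of endothelium (6 of 6), skeletal muscle (9 of 10), adipocytes (6 of 7), pericytes and smooth muscle (9 of 12, with 1 lower) and glia (6 of 7) were also called higher. Under quantile normalization, where 22% of all probe sets were, these counts were 4, 3, 3, 4 and 3, and under cyclic loess, where 18.3% were, 3, 3, 0, 3 and 4. The macrophage count was 14 under both and the T and NK cell count 12 and 10. Their part in the lower subunit signals was not tested. Between the normoxic culture times, Cox19 (-0.72, limma adjusted p = 0.0111) and Sdhb (-0.56, 0.0117) were lower at 16 h.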

How the data were processed

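RNA of 6 tumour regions and 12 cultures was hybridised to Affymetrix whole-transcript rat gene arrays. The deposited values are log2 signals. The submitters' processing notes name RMA and Partek 6.5b. If the authors scaled tumour and culture arrays apart, these notes do not say so, and tumour against culture levels were also rescaled. Gene names come from the platform annotation, and probe sets with several symbols were not named. With 3 arrays a group, the number of arrays limits the precision.

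Differences were fitted with limma 3.58.1 (R 4.3.3) on the deposited values, two-sided, with Benjamini-Hochberg adjustment over 27363 probe sets and no filter. Tumour regions were compared within tumours. The 12 cultures shared 1 fit. Tumour against culture comparisons used all arrays concerned. The single values for Cox4i2 minus Cox4i1 had exact permutation tests. The fitting code was tested on simulated data. Deviations of culture arrays with the same number correlated at 0.125, 0.193 and 0.192 at 6 h and 0.130, 0.188 and 0.307 at 16 h, all over 0.1, so the culture number was tried as a block. For the tumours, where the same tumour gave both regions, they were 0.128, 0.0357 and 0.273. For culture 6 at 6 h and for tumour 2, the highest correlation with an array of another number was larger (0.177 and 0.167). Alternatives were 3 rescalings, another variance model, a filter on dim probe sets, the mean of a gene's probe sets, the block, all 18 arrays in 1 fit and leaving out each array or tumour. The members and lists were chosen with earlier results of these data known. Genes named are Uqcrc1, Cox4i1, Cox4i2, the isoform families, the catalytic ring and its inhibitor, those with the smallest p in each comparison, and called genes of the 6 related lists, and the remaining names were added after their values were seen. Promoters were searched with Python 3.11.15 and pandas 2.3.3.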

Additional observations from a re-analysis of the deposited data

Results flagged for a closer look

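The following 8 genes differed between tumours and cultures in their response to hypoxia, by limma's test of the difference itself. Among the subunits the tumour response was below the mean culture response by -0.89 for Atp5po, -0.65 for Cox6c, -1.07 for Uqcrh and -1.02 for Atp5pf. Among the related genes it was below by -1.38 for Sdhd, -0.80 for Surf1, -0.88 for Higd2a and -1.11 for Mxi1. With arrays weighted by spread, Sdhd kept its call (limma adjusted p = 0.0148) and the other 7 did not.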

How the results depend on the processing

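Under the alternatives run, 0 members were called for hypoxia in culture at either time. In the tumours, 10 were called when all 18 arrays shared 1 fit, although tumour pairs varied more than cultures, and leaving out 1 tumour gave 0 to 1. For tumour against culture response, cyclic loess gave 1 call, the replicate block 2, arrays weighted by spread 0, and leaving out 1 tumour or array 2 to 12, with medians of -0.47 to -0.19. The culture number as a block was otherwise run only for hypoxia in culture and for its difference between times, where the count was 0 with and without it. For normoxic tumours against cultures, 15 members were called after quantile normalization (1 higher, 14 lower), 17 after cyclic loess (3 higher, 14 lower) and 33 after median centring (all lower), with medians of -0.32, -0.26 and, after median centring, -1.21, and -1.04 to -0.70 leaving out 1 array. There, Atp5f1e turned to 0.52 under quantile normalization and 0.49 under cyclic loess and was called higher. Under the same 2 rescalings Atp5mc1 turned to 0.22 and 0.18 and Uqcrc1 to 0.22 and 0.25. Under cyclic loess Atp5if1 turned to 0.43 and Cox6a1 to 0.36, both called higher. The background called higher was 22% of all probe sets after quantile normalization and 18.3% after cyclic loess. Between culture times, quantile normalization and cyclic loess gave 2 calls, all 18 arrays 1, and leaving out 1 array 1 to 5. Leaving out 1 tumour, Cox4i1 ranged from -1.06 to 0.23 in the tumours, above 0 without tumour 3, and Cox4i2 minus Cox4i1 from -0.18 to 1.22. Beyond fewer samples and the rescaling itself, the cause was not tested. Of the values of single genes, 697 kept their direction and side of the threshold, 120 lost a call, 11 gained one and 6 reversed. The number of tumours limits the tumour estimates, and dim probe sets such as those of Cox4i2 limit what can be seen of rare transcripts.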
